A study of Mus musculus with 35 samples.

Results

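The 3 Period genes (Per1, Per2 and Per3) and the 2 cryptochrome genes (Cry1 and Cry2) encode the repressors at the centre of the circadian clock. They were chosen by name as the core repressors of the loop, and they are 5 of the 49568 genes in the count tables; all 5 passed the filter on low counts, which 18063 genes passed. The data were fragment counts per gene from poly(A) RNA of the hypothalamus in 35 libraries, all from male mice of strain B6/J and all taken at Zeitgeber time (ZT) 16, in hours from lights-on. The groups were control mice with food freely available (n = 10, called fed here), control mice without food for 16 h before ZT16 (n = 10, called fasted), PER2-S662D mice fed (n = 5) or fasted (n = 5) in the same way, and fasted mice labelled Per2 ko (n = 5). The study set the feeding state and the clock protein PER2 against each other, and no fed group carried the Per2 ko label.

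PER2-S662D mice carry a PER2 protein in which an acidic aspartate takes the place of a phosphorylated serine, a change used to mimic a phosphate group. The labels say neither whether that allele replaces the mouse Per2 gene or is added to it, nor which exons the Per2 ko allele lacks. They name separate samples of a group without stating separate litters or cages, so p-values measure the spread between these libraries. Library numbers in the file headers form separate ranges for controls 1 to 5, controls 6 to 10, the Per2 ko label and S662D. Genotype and library range therefore cannot be told apart for either mutant, and results for the 5 genes are also given within the 2 control sets. In 6 S662D libraries (replicates 2, 3 and 4 of both feeding states) the library number ends in an additional digit of unstated meaning. Results for the 5 genes are given with and without these libraries.

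In the clock loop the activators CLOCK and BMAL1 bind E-box sequences and drive transcription of the Per and Cry genes. The PER and CRY proteins accumulate, enter the nucleus as a complex with casein kinase 1 and block those activators, until phosphorylation and ubiquitination mark them for destruction and a new cycle starts. In this loop CRY1 and CRY2 bind and repress CLOCK and BMAL1, PER1 and PER2 carry the complex and its kinase, and PER3 is the least required of the Period proteins for the rhythm itself. The hypothalamus holds the suprachiasmatic nucleus, the light-entrained pacemaker, beside nuclei that control hunger and body temperature and whose clocks also respond to feeding.

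The promoters are shown as background, because elements known to drive clock transcription can lie near a gene's start. Sites outside the windows were not searched. RefSeq (GRCm38.p6) gave windows for 4 of the 5 genes, each from 250 bases before to 50 bases after a transcription start; Per2 had none in the table. Capitals mark the E-box (CACGTG, the site of CLOCK and BMAL1), the E prime box (CACGTT, or AACGTG read on the other strand) and the D-box (TTATGTAA or TTATGCAA, the site of DBP, TEF, HLF and their rival NFIL3). The lines run 5′ to 3′ along the gene's own strand.
Per1, chr11:69098699-69098998, plus strand: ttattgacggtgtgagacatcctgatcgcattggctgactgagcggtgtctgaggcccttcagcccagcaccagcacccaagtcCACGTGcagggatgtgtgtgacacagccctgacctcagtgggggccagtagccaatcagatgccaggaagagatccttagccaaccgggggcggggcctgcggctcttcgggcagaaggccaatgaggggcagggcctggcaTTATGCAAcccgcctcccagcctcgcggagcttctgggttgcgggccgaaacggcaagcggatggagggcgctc
Per3, chr4:151044616-151044915, minus strand: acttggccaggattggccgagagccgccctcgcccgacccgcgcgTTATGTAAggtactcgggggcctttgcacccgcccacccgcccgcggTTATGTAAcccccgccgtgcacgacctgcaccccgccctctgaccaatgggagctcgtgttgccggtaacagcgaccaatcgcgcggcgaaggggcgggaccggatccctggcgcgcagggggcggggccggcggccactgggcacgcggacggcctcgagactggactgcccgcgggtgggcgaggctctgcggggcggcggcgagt
Cry1, chr10:85185005-85185304, minus strand: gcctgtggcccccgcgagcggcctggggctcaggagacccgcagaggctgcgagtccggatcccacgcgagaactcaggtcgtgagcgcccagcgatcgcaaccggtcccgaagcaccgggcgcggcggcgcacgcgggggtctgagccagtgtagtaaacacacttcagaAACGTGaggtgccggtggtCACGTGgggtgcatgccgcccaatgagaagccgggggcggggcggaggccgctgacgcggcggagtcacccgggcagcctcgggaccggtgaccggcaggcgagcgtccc
Cry2, chr2:92434020-92434319, minus strand: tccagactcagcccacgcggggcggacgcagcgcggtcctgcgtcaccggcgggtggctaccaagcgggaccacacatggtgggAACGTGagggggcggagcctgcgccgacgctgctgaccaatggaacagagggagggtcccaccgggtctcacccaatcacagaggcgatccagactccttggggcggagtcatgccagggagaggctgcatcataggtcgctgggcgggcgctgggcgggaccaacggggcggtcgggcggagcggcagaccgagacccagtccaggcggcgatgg

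The windows held different mixtures of these letters. In Per1 an E-box began at position -166 and a D-box at -24, counted from the start site. Per3 held 2 D-boxes, at -205 and -158, and no E-box or E prime box. Cry1 held an E-box at -60 and an E prime box at -79, and Cry2 an E prime box at -166. A second RefSeq start of Per1 (chr11:69099902-69100201, plus strand, not printed) held none of the 3. Searched on both strands over all 32851 RefSeq promoter windows of this length, the E-box was found in 7.15%, the E prime box in 4.68% and the D-box in 1.66%.

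Elements through which other signals reach clock genes were searched in the same way. No window of the 4 genes matched the full cAMP response element TGACGTCA (1.79% of all windows), the ROR element core TAGGTCA or TGGGTCA (6.45%) or the glucocorticoid response element consensus (0.475%). The shorter cAMP site TGACG, which is part of the full element and was found in 20.8% of all windows, lay at -246 and -132 in the first and second Per1 windows, at -8 in Cry1 and, as CGTCA, at -209 in Cry2. A match describes letters in these windows and says nothing on binding here.

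In the count tables (mm10, the same assembly as GRCm38) Per1 spans bases 69095217 to 69109960 of chromosome 11 on the plus strand. The other 4 lie on the minus strand: Per2 at 91415982 to 91459324 of chromosome 1, Per3 at 151003652 to 151044665 of chromosome 4, Cry1 at 85131700 to 85185064 of chromosome 10 and Cry2 at 92403646 to 92434043 of chromosome 2. Counts per library ranged from 17959586 to 37027342, with the deepest in the S662D groups. Values are given as CPM, the usual depth-scaled count, on library sizes adjusted by edgeR's TMM method. The lowest count of any of the 5 genes in a library was 332, for Per2. The hypothalamic genes orexin (Hcrt), melanin-concentrating hormone (Pmch), Pomc, Agrp, oxytocin (Oxt) and Trh were at 0 in 0 of 35 libraries. Detection alone does not identify the tissue, since the choroid plexus gene Ttr and the pituitary gene Tshb were also at 0 in 0 libraries. Summed markers of the choroid plexus ranged from 24.1 to 1565 CPM over the libraries with no gene of the list called in any comparison.

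Set per kilobase of exon, so that genes can be compared, Cry2 was the most abundant repressor in every group. Fed controls held 17.3 ± 0.890 CPM per kilobase of Cry2 (SD, n = 10), 10.9 ± 0.614 of Per1, 8.41 ± 0.455 of Cry1, 4.82 ± 0.320 of Per2 and 4.75 ± 0.356 of Per3. The ranges of neighbours in this order did not overlap except those of Per2 and Per3, and Per2 was above Per3 in 5 of 10 libraries. Fasted controls kept that order of means, with Per1 at 14.0 ± 1.23 CPM per kilobase (SD, n = 10), and there the ranges of Cry2 and Per1 overlapped as well, although Cry2 was above Per1 in 10 of 10 libraries.

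The order of the means differed from that of controls in fed S662D mice. Cry1 stood above Per1 in fed S662D mice, at 11.1 ± 0.472 against 9.89 ± 0.782 CPM per kilobase (SD, n = 5 each). The ranges of the 2 genes overlapped across libraries, and Cry1 was the higher in 5 of 5. Fasted S662D mice had the order of the controls, and Per1 was above Cry1 in 4 of 5 libraries, at means of 13.2 and 10.6 CPM per kilobase. Per3 had the lowest mean in both S662D groups, and its range overlapped that of Per2 in each.

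**Figure D1:**
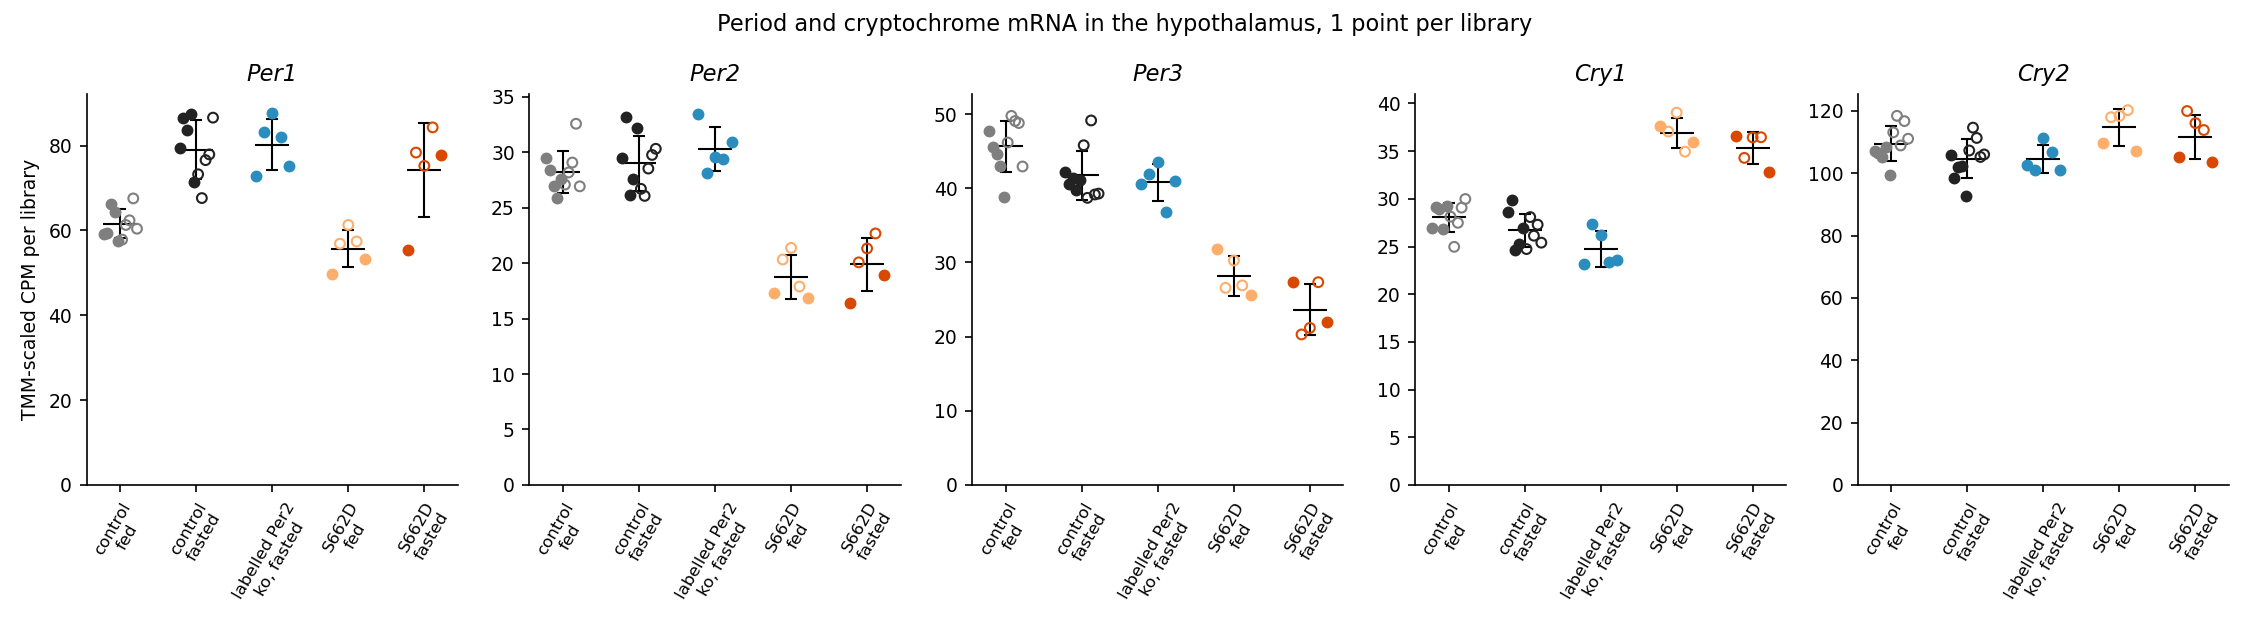
TMM-scaled CPM of each repressor gene in each library (y axis, from 0) by group (x axis); bars give the mean ± SD. Open points are controls 6 to 10 and S662D libraries with the additional digit. Per2 and Per3 lie lower and Cry1 higher in every S662D library than in every control library of the same feeding state, and Per1 lies higher in every fasted than in every fed control library.

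The comparison of S662D with control mice asked how the repressor genes stand when PER2 carries the phosphate-mimicking change. In both feeding states Per2 and Per3 mRNA was lower and Cry1 mRNA higher in S662D mice, while Per1 and Cry2 were not called. Fed, 3 of the 5 genes were called, against 4.69% of the 18063 genes tested (called lower 1.57%, higher 3.12%). Fasted, the same 3 were called, in a comparison that called 5.57% of all genes (lower 2.23%, higher 3.35%). Here and below a gene is called when its p from edgeR's quasi-likelihood test, adjusted by Benjamini-Hochberg over all genes tested, lay below 0.05. In whole tissue, fewer cells of a type and less RNA per cell cannot be told apart. All libraries were taken at ZT16, so for rhythmic genes, here and below, a shifted rhythm and a changed level cannot be told apart.

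Per2, whose product is the scaffold of the repressor complex, held 17.3, 20.3, 21.4, 17.9 and 16.9 CPM in the 5 fed S662D libraries. Fed controls ranged from 25.9 to 32.6 CPM with a median of 27.9. The groups did not overlap, and the highest S662D library lay well under the lowest control. Overlap of groups, here, below and in the plot of CPM by library, was examined for the 5 repressor genes only. How often groups fail to overlap among all genes tested was not counted, so such separation is given as a description. The log2 fold change was -0.59 (SE 0.07, adjusted p 1.18e-07).

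Fasted S662D libraries held 16.4, 20.1, 21.3, 22.7 and 18.9 CPM of Per2, against 26.1 to 33.1 CPM in fasted controls (median 29.0). Again no S662D library reached the control range, and the log2 fold change was -0.55 (SE 0.07, adjusted p 6.80e-07). Within S662D, the libraries without the additional digit were the low ones: fed, 17.1 CPM on average in 2 libraries against 19.9 in the 3 with it, and fasted, 17.7 against 21.3. The fold change against controls thus ran from -0.51 with the digit to -0.72 without it when fed, and from -0.44 to -0.71 when fasted. Since the S662D allele may be an added copy, the counts do not show from which allele these transcripts came.

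Per3 had the largest fold change of the 5 genes with all libraries. In fed mice that order turned without the digit libraries (Per2 -0.72, Per3 -0.67) and with the digit as a term (-0.74 and -0.65). PER3 binds the other PER and CRY proteins, and its mRNA is a strongly rhythmic output of the loop in many tissues. The 5 fed S662D libraries held 31.9, 26.6, 30.3, 26.9 and 25.6 CPM against 38.8 to 49.8 CPM in fed controls (median 45.9). Fasted, they held 27.4, 20.3, 21.2, 27.3 and 21.9 CPM against 38.7 to 49.1 CPM (median 40.9). All 10 S662D libraries lay below all 20 control libraries. The log2 fold change was -0.70 in fed mice (SE 0.07, adjusted p 2.39e-09). In fasted mice it was -0.82 (SE 0.07, adjusted p 1.99e-11).

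Cry1, the stronger repressor of CLOCK and BMAL1, moved the opposite way. Fed S662D libraries held 37.6, 37.1, 39.0, 34.9 and 35.9 CPM, and fed controls 25.0 to 30.0 CPM (median 28.5). Fasted S662D libraries held 36.6, 34.3, 36.4, 36.5 and 32.8 CPM, and fasted controls 24.7 to 29.9 CPM (median 26.5). Every S662D library lay above every control library. The log2 fold change was 0.39 in fed mice (SE 0.05, adjusted p 1.13e-06). In fasted mice it was 0.40 (SE 0.05, adjusted p 7.58e-07). These differences in Per2, Per3 and Cry1 were called under each of the 26 alternative fits in both feeding states, among them those against controls 1 to 5 or 6 to 10 alone. Of the 3, Cry1 moved least with the S662D library sets, from 0.38 to 0.40 fed and from 0.38 to 0.42 fasted.

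Per1 and Cry2 were not called in either state. Per1, the light- and hormone-responsive member, held 49.7, 56.9, 61.3, 57.4 and 53.3 CPM in fed S662D mice against 57.5 to 67.5 in fed controls (median 60.8), and 4 of the 5 lay below every control. Its log2 fold change was -0.14 fed (95% interval -0.28 to -0.01, adjusted p 0.209) and -0.09 fasted (-0.23 to 0.04, adjusted p 0.460). Within S662D, Per1 averaged 58.5 CPM with the additional digit and 51.5 without it when fed, and 79.3 and 66.7 when fasted. Its fold change ran from -0.08 with the digit libraries alone to -0.28 with the digit as a term when fed. Fasted, it ran from 0.00 with the digit libraries alone to -0.24 without them, and was -0.00 without fasted S662D replicate 1 and -0.14 without replicate 4. Per1 was called in 0 of 26 alternatives in either state.

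Cry2, the weaker cryptochrome repressor, held 110, 118, 118, 120 and 107 CPM in fed S662D mice and 99.4 to 118 in fed controls (median 109). Its log2 fold change was 0.07 fed (95% interval -0.02 to 0.16, adjusted p 0.402) and 0.09 fasted (0.00 to 0.18, adjusted p 0.210). Cry2 levels moved with the library sets: fed controls 1 to 5 averaged 105.3 CPM and controls 6 to 10 averaged 113.6, with no overlap, and fed S662D libraries averaged 118.9 with the digit and 108.4 without it. Cry2 was called in fasted S662D mice in 2 of 26 alternatives, at 0.16 both against controls 1 to 5 alone (adjusted p 0.0402) and with the 3 digit libraries alone (adjusted p 0.0218), and was -0.00 without those libraries. The part of the library set in the Cry2 values was not tested. Cry2 also shares 4.67% of its exon bases with a gene on the opposite strand, D930015M05Rik, and the counts did not use strand.

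**Figure D2:**
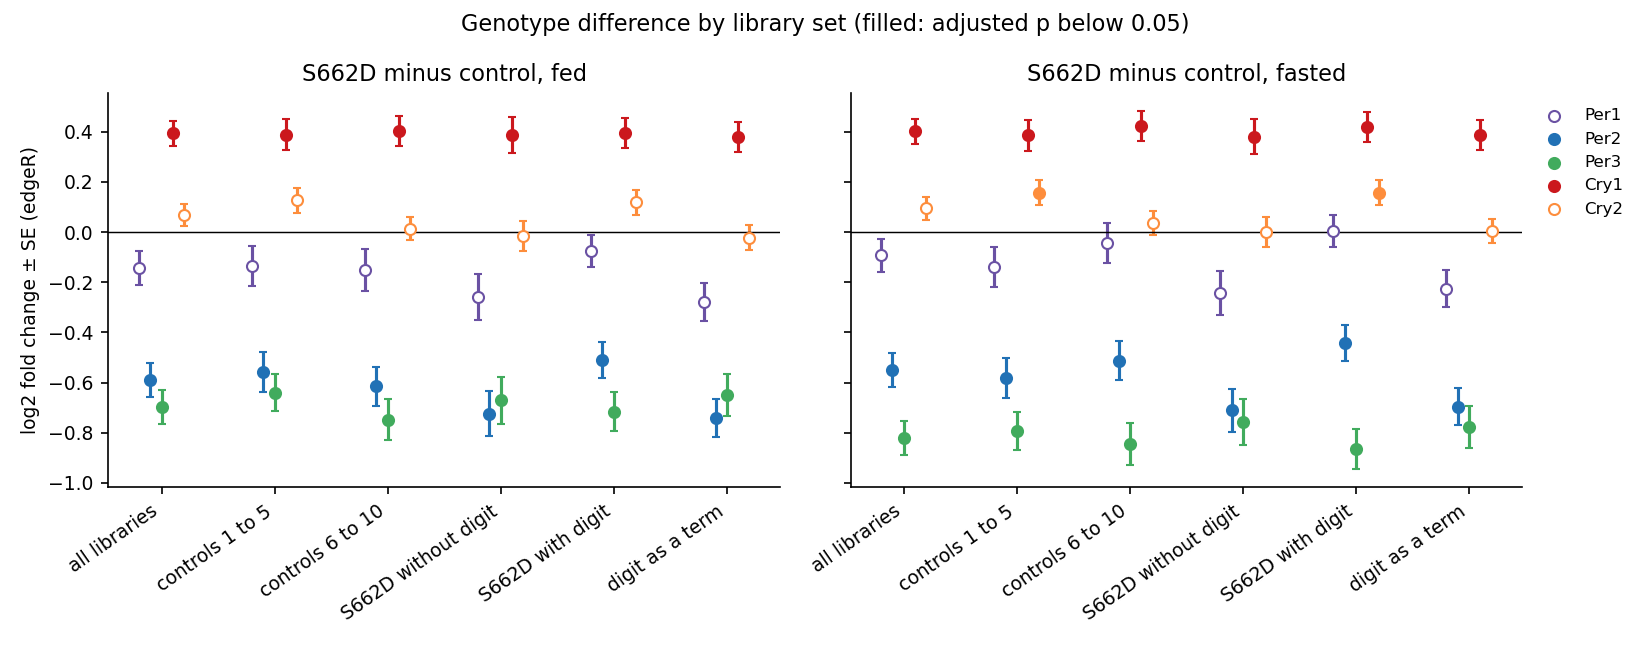
log2 fold change of S662D minus control (y axis, ± SE) for each repressor gene when fed (left) or fasted (right), with all libraries, with 1 control set, with 1 S662D set, and with the additional digit as a term (x axis). Per2, Per3 and Cry1 keep filled points (adjusted p below 0.05) throughout, and Cry2 is filled only for fasted S662D against controls 1 to 5 and with the digit libraries.

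Some markers of other cell types moved with these comparisons. None of the endothelial and oligodendrocyte markers was at 0 in any library. Of 6 endothelial markers, Cldn5 and Flt1 rose and Ly6c1 fell in fed S662D mice, and Cldn5, Pecam1, Flt1 and Cdh5 rose in fasted S662D mice. When fed, their summed level was 194 to 225 CPM in controls against 201 to 231 in S662D mice. When fasted, it was 178 to 204 CPM in controls against 183 to 244 in S662D mice. This sum moved with the S662D library sets. Fed, it was 219, 229 and 231 CPM with the additional digit and 201 and 202 without it. Fasted, it was 212, 226 and 244 CPM with the digit and 207 and 183 without it. The oligodendrocyte gene Mobp fell in fed S662D mice. The part of these cells in the Per and Cry values was not tested. Of 8 genes that mark the suprachiasmatic nucleus, among them Vip, Avp and Rgs16, 0 were called between S662D and control mice in either state.

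As a share of the 5 transcripts, each set per kilobase, Cry1 made up 18.2% ± 1.20 (SD, n = 10) in fed controls and 24.5% ± 1.08 (SD, n = 5) in fed S662D mice. Per2 made up 10.4% and 7.06% and Per3 10.3% and 6.50% in the same groups, while Cry2 made up 37.5% and 40.1% and Per1 23.7% and 21.9%. Fasted, Cry1 made up 16.7% in controls and 22.4% in S662D mice, and Per3 9.08% and 5.23%. The ratio of Per3 to Cry1, chosen because these genes moved in opposite directions, is given as a description. It was 0.568 ± 0.0659 (SD, n = 10) in fed controls and 0.266 ± 0.0190 (SD, n = 5) in fed S662D mice, and 0.546 and 0.232 when fasted.

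**Figure D3:**
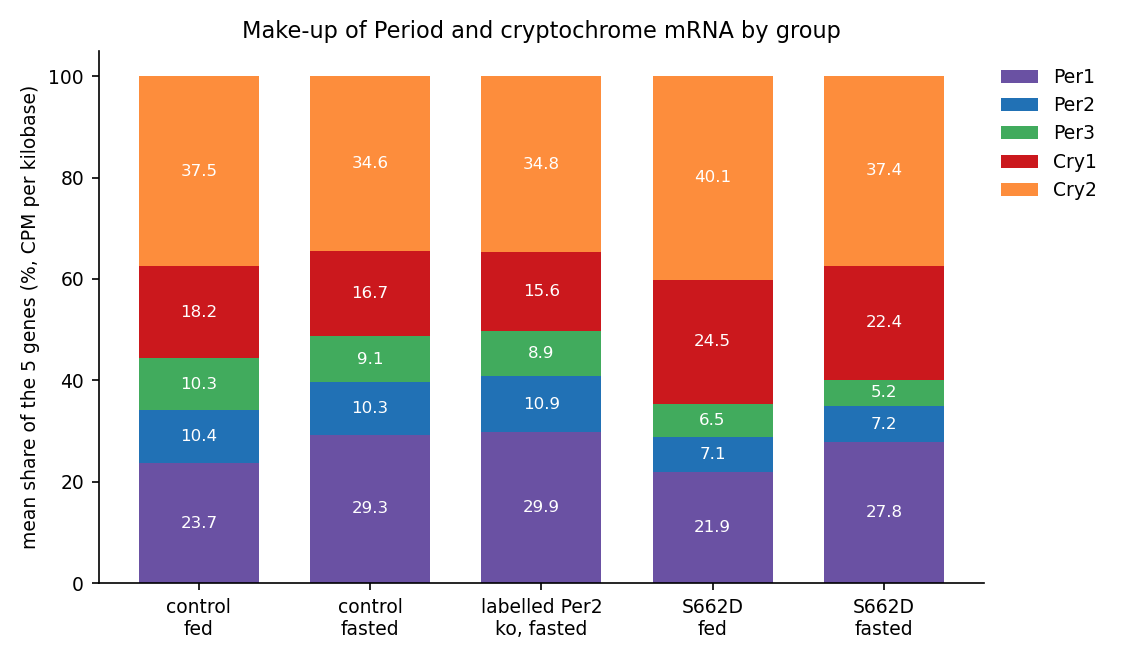
Mean share of each gene in the summed CPM per kilobase of the 5 genes (y axis, percent, bars from 0 to 100) in the 5 groups (x axis). The Cry1 share is 24.5% in fed and 22.4% in fasted S662D mice against 18.2% and 16.7% in controls, and the Per1 share is larger in each fasted group than in the fed group of its genotype.

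The fasting comparison asked how the repressors stood after 16 h without food. Per1 rose in both genotypes and the other 4 genes were not called in either. In controls 1 of the 5 genes was called, against 3.88% of all genes (2.2% called higher and 1.68% lower). In S662D mice it was also 1 of 5, against 2.64% (1.8% higher and 0.83% lower).

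Per1 lay between 57.5 and 67.5 CPM in fed controls (median 60.8) and between 67.6 and 87.4 in fasted controls (median 78.7). All 10 fasted libraries were above all 10 fed ones, though the gap between the groups was small. The log2 fold change was 0.36 (SE 0.05, adjusted p 1.42e-05). It was 0.41 within controls 1 to 5 (adjusted p 0.00149) and 0.30 within controls 6 to 10, where the call was lost (adjusted p 0.0505).

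In fasted S662D mice Per1 held 55.5, 78.4, 75.2, 84.3 and 77.8 CPM, against 49.7 to 61.3 CPM in the fed ones listed above. Replicate 1 stayed within the fed range and the other 4 lay above it. The log2 fold change was 0.41 (SE 0.08, adjusted p 0.000589), and 0.50 without that library. In the 4 S662D libraries without the additional digit it was 0.38 and not called (adjusted p 0.423).

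Per1 is a known direct target of the glucocorticoid receptor, and fasting raises glucocorticoids in mice. All 17 genes of a glucocorticoid-induced list rose on fasting in both genotypes, with a median log2 fold change of 1.20 in controls and 1.30 in S662D mice, against medians of 0.00 over all genes tested in each. The list was chosen with its response in these libraries known, so it is no independent evidence. Sgk1, a salt- and stress-regulated kinase, stood at 1.87 and 2.53 and Fkbp5, a co-chaperone of the receptor, at 1.02 and 0.97. The list's summed level was 625.2 to 842 CPM when controls were fed. It was 1495 to 1704 CPM in fasted controls 1 to 5, where Per1 held 71.5 to 87.4 CPM. In fasted controls 6 to 10 the sum was 1100 to 1762 CPM and Per1 held 67.6 to 86.6 CPM.

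Among fasted S662D mice the sum was 990 CPM in replicate 1, the library with the lowest Per1, and 1406 to 1750 CPM in the others. Of 14 neuronal activity genes, which share the cAMP and calcium inputs of Per1, Fosb and Dusp1 rose in fasted controls and Dusp1 in fasted S662D mice. Fos stood at 0.32 and 0.27 and Egr1 at 0.08 and 0.16, and neither was called. The part of either signal in the Per1 values was not tested.

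Some cell type markers moved on fasting as well. Of 6 microglial markers, Cx3cr1 fell in both genotypes and P2ry12 in controls, and the list's sum was 161 to 187 CPM in fed and 132 to 188 in fasted controls, and 163 to 184 and 149 to 179 in S662D mice. Of 6 markers each, the astrocyte gene Aldh1l1 and the oligodendrocyte gene Mobp rose in both genotypes and Aqp4 fell in controls. Of the 8 suprachiasmatic markers Rgs16 fell in controls (-0.35, adjusted p 0.00644), and 0 were called in S662D mice. The endothelial Cldn5 fell in controls and Ly6c1 rose in S662D mice. The part of these cells in the Per1 values was not tested.

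Per3 was the nearest of the other genes to a call. Its log2 fold change on fasting was -0.13 in controls (95% interval -0.24 to -0.02, adjusted p 0.232) and -0.25 in S662D mice (-0.41 to -0.10, adjusted p 0.0696). The S662D value was called in 5 of 19 alternatives: with library size only as the scale (-0.29, adjusted p 0.0339), by DESeq2's Wald test (-0.26, adjusted p 0.0448), and without fed replicate 5 (-0.29, adjusted p 0.0472), fasted replicate 1 (-0.32, adjusted p 0.0151) or fasted replicate 4 (-0.31, adjusted p 0.0227). In fasted S662D mice 3 of 5 libraries lay below every fed S662D library.

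Per2, Cry1 and Cry2 differed little between the feeding states. Per2 values were 0.04 in controls (95% interval -0.07 to 0.15) and 0.08 in S662D mice (-0.08 to 0.23) on the log2 scale. Cry1 was at -0.07 (-0.16 to 0.01) and -0.06 (-0.18 to 0.05), and Cry2 at -0.07 (-0.14 to 0.01) and -0.04 (-0.14 to 0.06). The fed and fasted ranges overlapped for each of the 3 genes in both genotypes. The ratio of Per1 to Per2 per kilobase was 2.28 ± 0.168 fed and 2.85 ± 0.297 fasted in controls (SD, n = 10 each), and 3.10 ± 0.196 and 3.88 ± 0.305 in S662D mice (SD, n = 5 each).

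Whether fasting acted differently in the 2 genotypes was tested as an interaction. It called 0 of the 5 genes and 0% of all genes, with 1151 genes at an unadjusted p below 0.05 and a lowest adjusted p of 0.762. The difference of the fasting responses, S662D minus control, was 0.05 for Per1 (95% interval -0.14 to 0.24), 0.04 for Per2 (-0.15 to 0.23), -0.12 for Per3 (-0.32 to 0.07), 0.01 for Cry1 (-0.13 to 0.15) and 0.03 for Cry2 (-0.10 to 0.15). Each interval includes 0, and none reaches the size of the S662D difference in Per2, Per3 or Cry1.

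**Figure D4:**
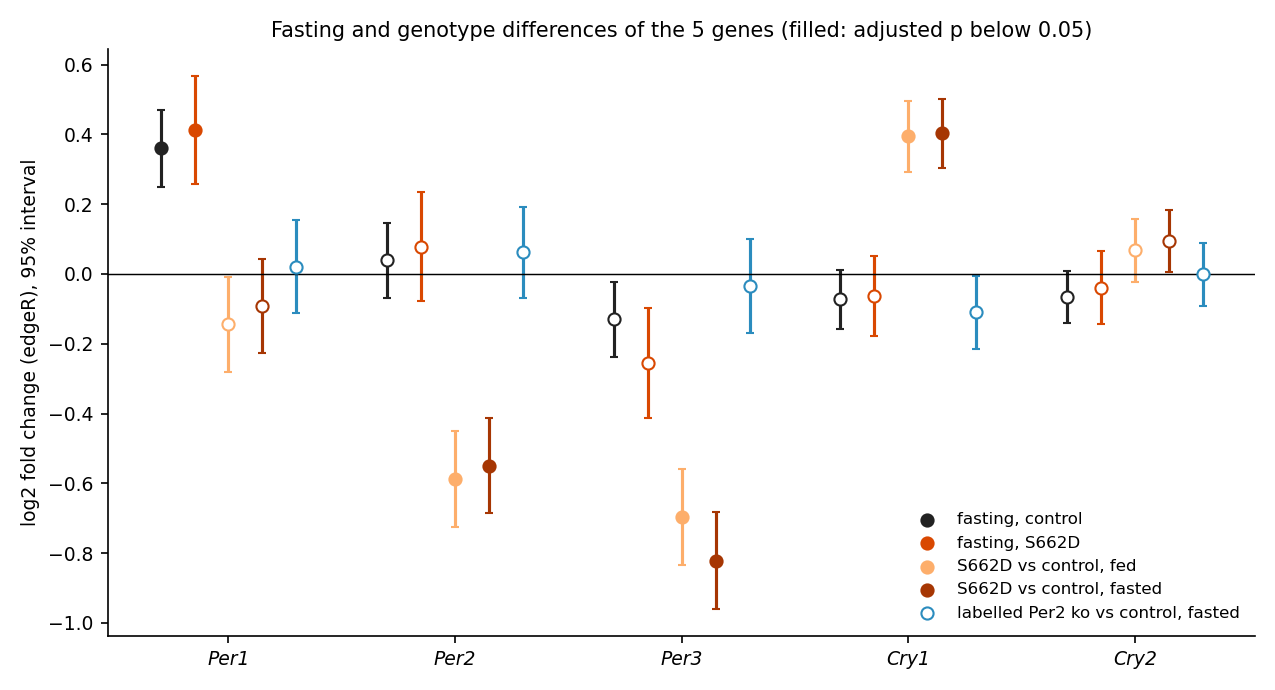
log2 fold change with its 95% interval (y axis) of each repressor gene (x axis) in 5 comparisons; filled points have an adjusted p below 0.05. Per1 is filled for fasting in both genotypes, Per2, Per3 and Cry1 for S662D against control in both feeding states, and no gene for the Per2 ko label.

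Libraries labelled Per2 ko were compared with fasted controls to see how the repressors stood under that label. Per2 itself was not lower in them. The 5 libraries held 33.4, 28.2, 29.5, 29.4 and 30.9 CPM, within or just above the 26.1 to 33.1 CPM of fasted controls, and the log2 fold change was 0.06 (95% interval -0.07 to 0.19, adjusted p 0.935). The counts are sums over the gene and were not resolved by exon, so whether these libraries lack part of Per2 is not analysed here.

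In the libraries labelled Per2 ko 0 of the 5 genes were called, in a comparison that called 5 of 18063 genes (0.0277%, with 0.00554% higher and 0.0221% lower) with 1097 at an unadjusted p below 0.05. Per1 held 72.9, 83.2, 87.7, 81.9 and 75.3 CPM (log2 fold change 0.02, 95% interval -0.11 to 0.15). Per3 held 40.6, 41.9, 43.6, 36.8 and 41.03 CPM (-0.03, -0.17 to 0.10). Cry1 held 23.2, 27.4, 26.2, 23.3 and 23.6 CPM, with 3 libraries below every fasted control (-0.11, -0.22 to -0.00, adjusted p 0.817). Cry2 held 103, 101, 111, 107 and 101 CPM (-0.00, -0.09 to 0.09). None of the 5 was called in any of 23 alternatives, those with 1 control set included.

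Against fasted S662D mice, the same libraries had higher Per2 (0.61, SE 0.08, adjusted p 8.51e-07) and Per3 (0.79, SE 0.08, adjusted p 2.66e-09) and lower Cry1 (-0.51, SE 0.06, adjusted p 1.26e-07). That comparison called 7.34% of all genes (2.61% higher, 4.72% lower), shares libraries with both the Per2 ko and the fasted S662D comparison against controls, and left Per1 (0.11, adjusted p 0.399) and Cry2 (-0.10, adjusted p 0.273) uncalled. Cry2 was called in 1 of 19 alternatives, with the S662D libraries that carry the digit (-0.16, adjusted p 0.0415). The endothelial markers Cldn5, Pecam1, Flt1 and Cdh5 were lower in the Per2 ko libraries, whose sum of 6 markers was 172 to 192 CPM, and the hypothalamic peptides Hcrt and Pmch were higher. The part of those cells in the difference was not tested.

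The rest of the clock loop was followed with a list of 15 genes that was chosen, like the repressors, with earlier results of these data known. Between S662D and control mice 8 of 15 were called when fed and 7 of 15 when fasted, where 4.69% and 5.57% of all genes were. The list genes were tested with all libraries only, not by library set. Over all genes, the fits without the digit libraries called 16 when fed and 21 when fasted. On the activator side, Arntl, which encodes BMAL1, rose from 22.9 to 33.5 CPM on average when fed (log2 fold change 0.55) and from 22.1 to 31.3 when fasted (0.50). Npas2, a relative of Clock that can stand in for it, rose by 0.57 and 0.54, and Nfil3, the D-box repressor, by 0.34 and 0.44. Clock itself was not called, at 0.12 and 0.01.

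Other clock-loop genes were lower in S662D mice. Nr1d2, a nuclear receptor that represses Arntl, fell from 133.1 to 89.8 CPM when fed (-0.57) and from 128.8 to 80.04 when fasted (-0.69). Tef, a D-box activator, fell by 0.48 and 0.51 on the log2 scale, Dbp, another, by 0.65 and 0.57, and Ciart, a repressor of CLOCK and BMAL1, by 0.87 and 0.88. Bhlhe40, an E-box repressor, fell by 0.20 in fed S662D mice (adjusted p 0.0436) and was at -0.04 when fasted. Nr1d1, the close relative of Nr1d2, was at -0.15 and -0.06 and was not called. In median over the list, the log2 fold change was -0.13 fed and -0.04 fasted against -0.01 and -0.00 over all genes.

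Fasting called 4 of the 15 in controls, where 3.88% of all genes were called: Ciart rose by 0.25, and Nr1d1 fell by 0.24, Dbp by 0.33 and Bhlhe40 by 0.32. None of the 15 was called on fasting in S662D mice (2.64% of all genes). There Ciart stood at 0.24, Nr1d1 at -0.15, Dbp at -0.25 and Bhlhe40 at -0.17, each with the sign seen in controls. The Per2 ko comparison with controls and the interaction called 0 of the 15. In the Per2 ko libraries against fasted S662D mice, Nr1d2, Tef and Ciart were higher and Arntl, Npas2 and Nfil3 lower.

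Enzymes and partners that set the life of PER and CRY proteins were followed in the same way. In a list of 13, with casein kinases Csnk1d and Csnk1e, the F-box proteins Btrc, Fbxw11 and Fbxl21 and the deubiquitinase Usp2, 2 were called in fed S662D mice, where 4.69% of all genes were: Fbxl21, which acts on CRY proteins, rose by 0.27 (adjusted p 0.0488) and Nono, a PER-binding factor, fell by 0.15 (adjusted p 0.0163). None was called in fasted S662D mice. The genes of this list too were tested with all libraries only, so these calls were not checked against the library sets. Usp2 rose by 0.18 on fasting in controls (adjusted p 0.00936) and was at 0.15 in S662D mice (adjusted p 0.220). The casein kinases lay between -0.07 and 0.03 in both S662D comparisons, and the kinase Gsk3b stood at 0.14 fed and 0.16 fasted (adjusted p 0.107 and 0.0564).

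Across the 35 libraries Per2 and Per3 varied together (Pearson's r 0.81, Spearman's rho 0.57), and each varied against Cry1 (r -0.82 for Per2 and -0.75 for Per3). The points share libraries and their scaling, and the groups differ, so r describes the spread of groups as well as of libraries. Taken as deviations from group means, Per2 and Per3 had an r of 0.04, Per2 and Cry1 of 0.19 and Per3 and Cry1 of 0.05. Over the deviations of the 20 control libraries alone these pairs had, in that order, an r of 0.17, 0.35 and -0.39. Per1 and Per2 had an r of 0.47 over the values and 0.46 over the deviations (Spearman's rho 0.31). Over the deviations of the 20 control libraries alone their r was 0.28.

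**Figure D5:**
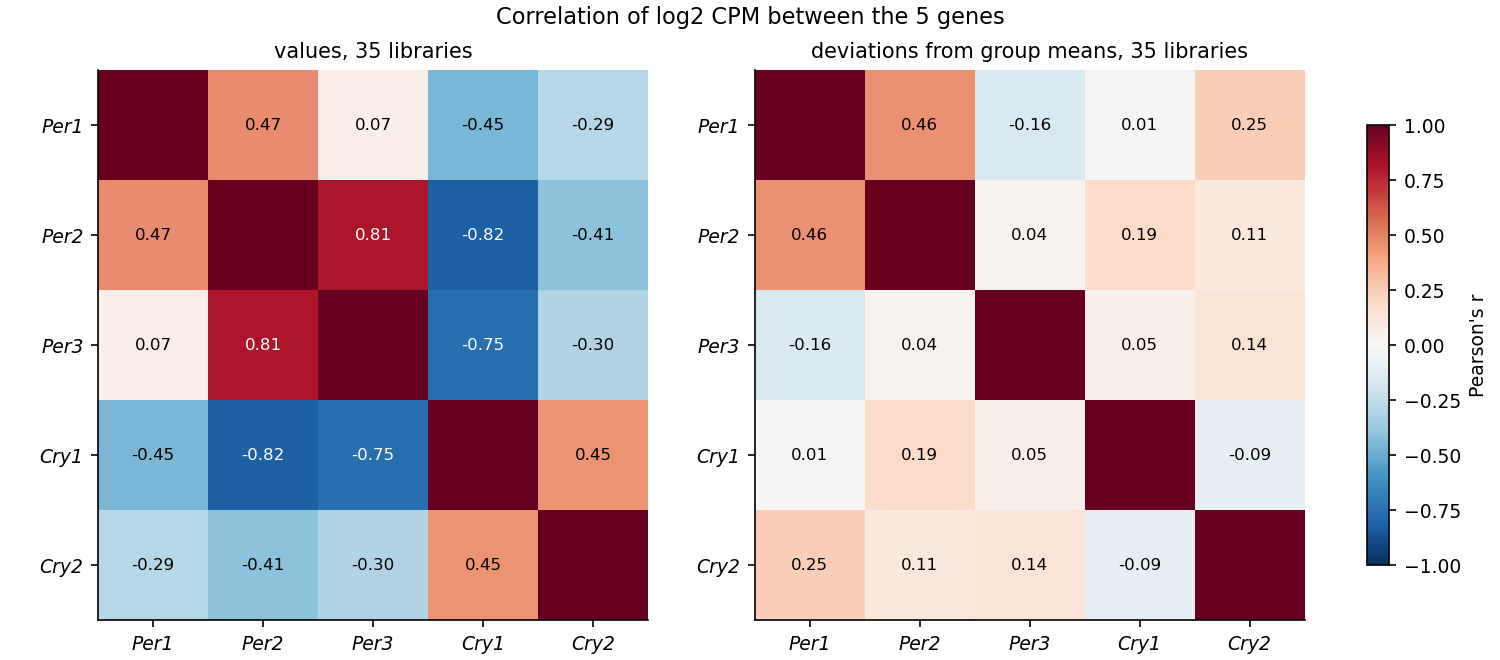
Pearson's r of log2 CPM between each pair of repressor genes over 35 libraries, from the values (left) and from deviations from group means (right); the colour scale runs from -1 to 1. The strong values for Per2, Per3 and Cry1 on the left are 0.81, -0.82 and -0.75, and on the right the same pairs lie at 0.04, 0.19 and 0.05.

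The genes most like each repressor were ranked by Pearson's r of log2 CPM over the 35 libraries among 15479 genes. For Per1 they were Trib1 (r 0.91), Arrdc2 (0.89) and Spsb1 (0.89), and over deviations from group means these held 0.75, 0.60 and 0.70. For Per2 they were Nr1d2 (0.90), Tef (0.88) and Ciart (0.86), and for Per3 Tef (0.93), Nr1d2 (0.92) and Il34 (0.86), with deviations between 0.13 and 0.44. Among the genes ranked for Per2, Per3 stood 7th from the top and Cry1 stood 2nd from the bottom.

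For Cry1 the most alike were Arntl (r 0.88), the glial fatty acid-binding protein gene Fabp7 (0.84) and Syt11 (0.81), whose deviations gave 0.07, 0.15 and -0.11. The genes nearest to Cry2, C2cd2l (0.83), Phf24 (0.82) and the synaptic Rph3a (0.81), gave 0.77, 0.78 and 0.78 over deviations, and so, like those nearest to Per1, also varied with it within groups. Cry2, Per1 and Per2 levels differed between the S662D library sets. Cry2 also differed between controls 1 to 5 and 6 to 10, at means of 105.3 and 113.6 CPM fed and 100.3 and 108.9 CPM fasted. What part the library sets have in these values was not tested.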

How the data were processed

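The authors deposited a raw count table for each library. Fragments were assigned with featureCounts 2.0.1 to GENCODE vM12 genes on mm10, per the file headers, without strand and with multi-mapping reads counted at each alignment; STAR 2.7.10b is named in the submitters' processing notes. Such counting can inflate genes with near-identical copies: the share of 50-base words also found in other genes was 3.29% for Cry2, 0.217% for Per3 and 0 for the other 3. Genes passing edgeR's filterByExpr (minimum count 10; 18063 genes) were scaled with TMM and fitted in 1 model of all 35 libraries with a mean per group (edgeR 4.0.16, R 4.3.3, glmQLFit robust and glmQLFTest), after tests on simulated data. Benjamini-Hochberg adjustment ran over all genes in each of 7 comparisons. The common biological coefficient of variation was 0.0900. No libraries of a group agreed within sampling noise (chi-square over degrees of freedom at least 2.44), so each counted once. Log2 CPM for correlations used a prior count of 2. CPM per kilobase used the exon length in the count tables.

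The genes named are the 5 repressors, the 3 genes with the highest r to each, called genes of the clock-loop and modifier lists, and examples from the other lists; uncalled genes named for contrast and the called marker and activity genes were chosen after their values were seen. Results for a few list genes are not reported here. The members and lists were chosen with earlier results of these data known. Alternatives were other scalings, no filter, only the compared groups in the fit, DESeq2 1.42.0, a replicate block, the library sets, the additional digit and leaving out each library.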

Additional observations from a re-analysis of the deposited data

Results flagged for a closer look

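Per2 in fed control replicate 9 was the highest of the fed controls, at 32.6 CPM, and only just passed the rule for a flag. The next library was at 29.4 CPM and the lowest at 25.9. The gap to the next library, divided by the group's range, was 0.466131 against a critical value of 0.466 for 10 libraries. A total of 25 sets of 1 gene in 1 group were looked at in this way, 1 was flagged, and chance flags about 1 in 20. Without this library the log2 fold change of Per2 in fed S662D mice was -0.56 (edgeR's quasi-likelihood test, adjusted p 2.65e-07), and on fasting in controls it was 0.06 (adjusted p 0.686).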

How the results depend on the processing

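Of 5 genes, the number called changed in 4 comparisons. On fasting in controls it was 1, and 0 within controls 6 to 10. On fasting in S662D mice it was 1, 2 with library size only, 2 with DESeq2's Wald test, 0 in the 4 libraries without the additional digit, and 1 to 2 when each library was left out in turn. It was 3 in fasted S662D mice and 4 against controls 1 to 5 or with the digit libraries alone, and 3 for Per2 ko against S662D and 4 with the digit libraries alone. The other 3 comparisons kept their number under every alternative run (library scaling, low-count filter, DESeq2, groups in the fit, replicate block, library sets, additional digit, each library left out), and no called value changed sign. Same-numbered libraries deviated together at r of -0.19 to 0.06 in controls, -0.11 to 0.16 in S662D mice and, highest, -0.05 to 0.24 between fed S662D and fed control libraries (3 of 5 over 0.1), and 0 of 10 and 1 of 5 fed libraries correlated best with their own number, so the numbers were not taken to pair libraries. With the replicate number as a block the called repressors were 1 on fasting in each genotype, 3 for S662D against control in each state and against Per2 ko, and 0 for the interaction and the Per2 ko label, while genes called went from 847 to 2347 in fed S662D mice and from 1325 to 227 for Per2 ko against S662D.

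Over all genes the counts moved far more with the library sets. Fed S662D against control called 847 genes, 16 without the digit libraries, 3106 with those alone, 66 without fed S662D replicate 4 and 1667 without replicate 1. Fasted it called 1007, 20 with the digit as a term, 3148 with digit libraries alone, 154 without fasted S662D replicate 4 and 1802 without replicate 1. Per2 ko against S662D called 1325, from 26 without the digit libraries to 2986 with those alone, and 521 without fasted S662D replicate 4. Fasting called 701 in controls (304 in controls 6 to 10, 1315 in controls 1 to 5) and 476 in S662D mice (7 without the digit libraries, 311 without fasted replicate 2). The interaction called 0, and 486 against controls 1 to 5. Per2 ko against control called 5, from 2 (controls 1 to 5) to 99 (controls 6 to 10). The cause was not tested, and sets of 2 libraries a group give little precision.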
